A study of Mus musculus with 16 samples.

Results

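The genes described here encode 10 proteins that make up, bind or fold the basement membrane: Col4a1, Col4a2, Lama1, Lama5, Lamb1, Lamc1, Nid1, Hspg2, Sparc and Serpinh1. They were followed through every probe set of the array that is assigned to exactly 1 gene symbol and carries 1 of these names, which gave 10 of the 12393 genes that the array names in this way and 19 of its 22626 non-control probe sets. Of the 10 genes, 2 (Col4a2 and Lama1) had 1 probe set, 7 had 2, and Lamb1 had 3. Each gene is led below by its brightest probe set, taken as the highest mean over all arrays, and the other probe sets are given beside it.

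RNA of J1 embryonic stem (ES) cells was hybridized to 16 Affymetrix Mouse 430A 2.0 arrays. J1 is a mouse line, here grown on gelatin with serum and leukemia inhibitory factor. In the knockdown arm, Tgif1 KD cells (2 arrays) were set against shControl cells (2 arrays). In the overexpression arm, arrays labelled Tgif1 OE (4) and Tgif2 OE (4) were set against a BirA control (4), cells labelled as overexpressing BirA, a bacterial biotin ligase. Tgif1 and Tgif2 are homeodomain proteins of the TALE class, known mainly as transcriptional repressors that damp TGF-beta signalling. The labels do not say how the constructs were delivered, whether a line was a clone, or whether the replicates are independent cultures. The p-values therefore measure only how far these arrays differ, which may be technical.

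The label check gave different results in the arms. The Tgif1 probe set fell by 3.40 ± 0.10 (SE) on the log2 scale on Tgif1 KD arrays relative to shControl (adjusted p = 9.22e-11). Relative to BirA control it was also lower on the arrays labelled Tgif1 OE, by a log2 change of -0.58 (adjusted p = 7.91e-05), and on those labelled Tgif2 OE, at -0.42 (adjusted p = 0.000602). The Tgif2 probe set was at 0.11 on the arrays labelled Tgif2 OE (adjusted p = 0.226) and at -0.45 on those labelled Tgif1 OE (adjusted p = 0.000252). In the knockdown it rose by 0.81 ± 0.09 (adjusted p = 2.21e-05), so Tgif1 was not the only Tgif transcript that changed there. Whether these probe sets can register the introduced transcripts is not known from the files, so both overexpression groups are called by their labels. The 8 ES cell markers averaged between 12.1 and 12.8 log2 on each array, near the top of a scale whose highest value was 14.79.

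A basement membrane is a thin sheet of extracellular matrix under epithelia. It is built on a laminin network and a collagen IV network that nidogen and perlecan link. Laminins are trimers of an alpha, a beta and a gamma chain, and the commonest collagen IV molecule joins alpha1 and alpha2 chains. In the mouse blastocyst the first basement membranes form beside the primitive endoderm and the trophectoderm, and ES cells make laminin-111 and laminin-511 themselves.

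The collagen IV pair is shown first, because its 2 genes share their start region. Col4a1 lies on chromosome 8 from 11198423 to 11312889 on the minus strand and Col4a2 from 11312805 to 11449287 on the plus strand (GRCm38.p6), so the annotated genes run head to head and overlap by 85 bases. Below are their RefSeq promoter windows of 300 bases, 250 before and 50 after the start, Col4a1 at chr8:11312777-11313076 on the minus strand and Col4a2 at chr8:11312555-11312854 on the plus strand. Capitals mark the 78 bases that both windows hold, read from opposite strands. The Col4a1 window was laid around a start inside the annotated gene, not at its outer end of 11312889. The overlaps of 85 and 78 bases therefore rest on different Col4a1 starts.
Col4a1: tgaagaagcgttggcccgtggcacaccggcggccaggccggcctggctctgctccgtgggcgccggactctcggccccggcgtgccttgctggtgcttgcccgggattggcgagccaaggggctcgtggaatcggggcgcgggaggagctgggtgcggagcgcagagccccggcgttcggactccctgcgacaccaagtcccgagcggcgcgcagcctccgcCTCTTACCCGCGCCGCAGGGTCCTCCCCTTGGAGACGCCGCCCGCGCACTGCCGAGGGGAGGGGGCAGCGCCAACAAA
Col4a2: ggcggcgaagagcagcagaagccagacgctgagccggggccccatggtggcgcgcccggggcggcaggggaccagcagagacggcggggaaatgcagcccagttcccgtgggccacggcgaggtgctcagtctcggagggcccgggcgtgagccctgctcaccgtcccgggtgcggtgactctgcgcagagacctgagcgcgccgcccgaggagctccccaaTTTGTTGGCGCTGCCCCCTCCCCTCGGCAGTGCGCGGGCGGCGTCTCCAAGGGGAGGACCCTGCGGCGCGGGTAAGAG
RefSeq windows were found for 8 of the 10 genes, all but Lama1 and Lamc1. The letters TGTCA, the core of the Tgif binding motif, were searched on both strands (as TGTCA or TGACA) and were in 0 of the 8 windows, whereas 45.4% of all 32851 windows in the table held them. The CCAAT box (CCAAT or ATTGG) was present once in each of the windows of Col4a1, Col4a2, Lamb1 and Nid1, and in 37.4% of all windows. Absence of a motif says only that those letters are not in these 300 bases.

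Across the 5 groups, the leading probe sets of collagen IV, Lamc1, Nid1 and Sparc were higher on Tgif1 KD arrays than on any other array. Those of Lama1 and Nid1 were lowest on arrays labelled Tgif1 OE and those of Sparc and Serpinh1 on BirA control arrays, also without overlap. By mean, but with overlap, Lama1 was highest on Tgif1 KD arrays and Lamc1 lowest on arrays labelled Tgif1 OE. The second Nid1 probe set averaged 6.65 under the Tgif1 OE label and 6.66 under the Tgif2 OE label. In the limma fit over all 22626 probe sets, with a Benjamini-Hochberg adjusted p under 0.05 as the threshold, 6 of the 19 probe sets rose on Tgif1 KD arrays and 0 fell. Over all probe sets 11.2% rose and 11.1% fell. At an unadjusted p under 0.05 there were 8 member probe sets, all higher. The median log2 change was 0.31 for the 19 and -0.04 for all probe sets, and 18 of the 19 were positive. Groups of 2 often do not overlap: this held for 18 of the 19 member probe sets and for 67% of all.

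On arrays labelled Tgif1 OE, 4 of the 19 rose and 4 fell, where 8.74% of all probe sets rose and 9.09% fell. On arrays labelled Tgif2 OE, 7 rose and 3 fell, where 24.9% of all rose and 6.18% fell. All probe sets had a median log2 change of 0.11 under the Tgif2 OE label, and with quantile normalization the whole array had 2574 higher and 2704 lower calls in place of 5637 and 1398. Of the 19, 6 rose and 3 fell under that scaling. The plot of log2 changes shows these 3 comparisons side by side.

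**Figure D1:**
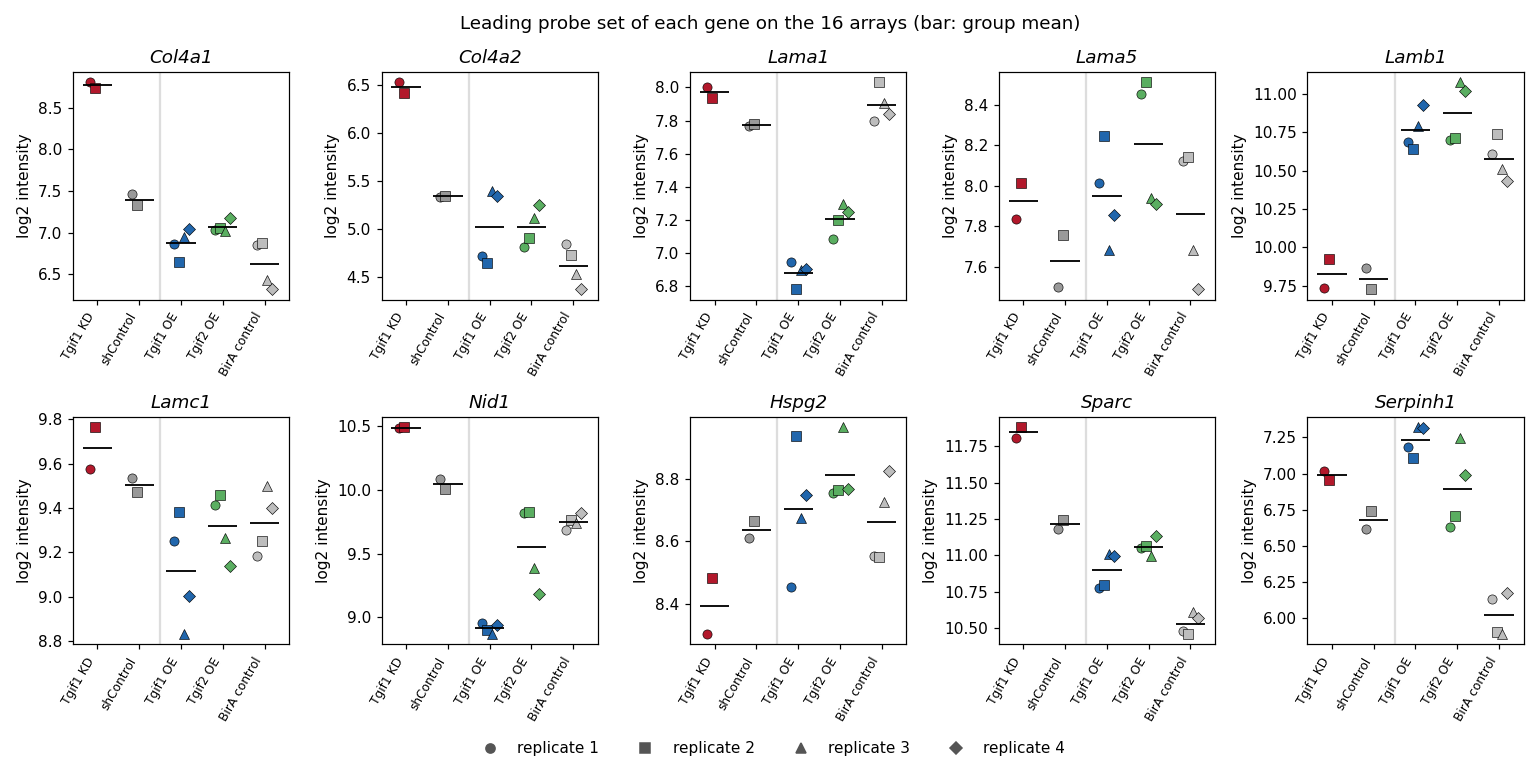
Log2 intensity (vertical axis, a separate scale in each panel) of the leading probe set of each gene on the 16 arrays, by group; points are single arrays, shapes give the replicate number and bars are group means. Both Tgif1 KD arrays lie above every other array for Col4a1, Col4a2, Lamc1, Nid1 and Sparc.

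Collagen IV rose strongly in the knockdown. Col4a1, the alpha1 chain, had log2 intensities of 8.80 and 8.73 on Tgif1 KD arrays, against 7.46 and 7.33 on shControl arrays. The overexpression arm lay lower: 6.87, 6.65, 6.95 and 7.04 on arrays labelled Tgif1 OE, 7.03, 7.06, 7.02 and 7.18 on arrays labelled Tgif2 OE, and 6.86, 6.87, 6.44 and 6.32 on BirA control arrays. The knockdown arrays were thus separated from all others. Their change from shControl was 1.37 ± 0.17 (SE, adjusted p = 3.22e-05), 2.58-fold, with a 95% interval of 1.02 to 1.72. The dimmer probe set, 1426348_at, rose by 1.19 ± 0.13 (adjusted p = 1.04e-05).

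Col4a2, the alpha2 chain that pairs with it, showed the same order of groups at its top. Its log2 intensities were 6.53 and 6.42 on Tgif1 KD arrays, against 5.34 and 5.35 on shControl arrays. It rose by 1.13 ± 0.23 (adjusted p = 0.00233), 2.19-fold. Over the 16 arrays the leading probe sets of the pair correlated at r = 0.96 (Pearson), a description over arrays that share the same group differences. Because RNA came from whole cultures, a higher level per cell and more cells of a type that makes collagen IV cannot be told apart.

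In the overexpression arm collagen IV gave no uniform answer. Col4a1 changed by 0.26 ± 0.12 on arrays labelled Tgif1 OE (adjusted p = 0.159), and Col4a2 by 0.40 ± 0.16 (adjusted p = 0.110), a value that reached 0.53 (adjusted p = 0.0374) without Tgif1 OE replicate 2. On arrays labelled Tgif2 OE the leading Col4a1 probe set rose by 0.45 ± 0.12 (adjusted p = 0.00958), or 0.34 above the median of all probe sets, whereas 1426348_at was at 0.00 (adjusted p = 0.987). Its probe sets therefore disagreed in that comparison, and the call of the leading one was lost with the array pairs described next averaged (adjusted p = 0.102). Col4a2 was at 0.40 there (adjusted p = 0.076).

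These small values hid a split among arrays. In all 3 groups of the overexpression arm, replicates 1 and 2 resembled each other across the whole array, as did replicates 3 and 4; the labels give the numbers and name no batch. Col4a2 measured 4.72, 4.65, 5.39 and 5.35 on arrays labelled Tgif1 OE (replicates 1 to 4), against 4.85, 4.73, 4.53 and 4.38 on BirA control arrays. Its change was -0.11 in replicates 1 and 2 and 0.91 in replicates 3 and 4, a difference of 1.02 ± 0.11 (adjusted p = 0.000725). For the leading probe set of Col4a1 the changes were -0.10 and 0.62, a difference of 0.72 ± 0.12 (adjusted p = 0.0103). The other Col4a1 probe set, 1426348_at, was at -0.15 and 0.04, and its difference was not called (adjusted p = 0.606). Both 1426348_at and the single Col4a2 probe set are rather dim, at brightness percentiles of 39 and 34.8, against 57.4 for the leading Col4a1 probe set.

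On arrays labelled Tgif2 OE, the leading Col4a1 probe set changed by 0.18 and 0.72 in those array pairs (adjusted p of the difference = 0.0293) and Col4a2 by 0.07 and 0.73 (adjusted p = 0.00572). Col4a1 1426348_at was at -0.02 and 0.01 there (adjusted p = 0.955). Such a difference was called for 4 of the 19 probe sets under the Tgif1 OE label, where 3.19% of all were called, and for 5 under the Tgif2 OE label, where 4.29% were. Besides Col4a2 and the leading Col4a1 probe set, these were both probe sets of Lamc1 under the Tgif1 OE label, and Nid1 and 2 probe sets of Lamb1 under the Tgif2 OE label. The knockdown arm has no such second pair of arrays.

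**Figure D2:**
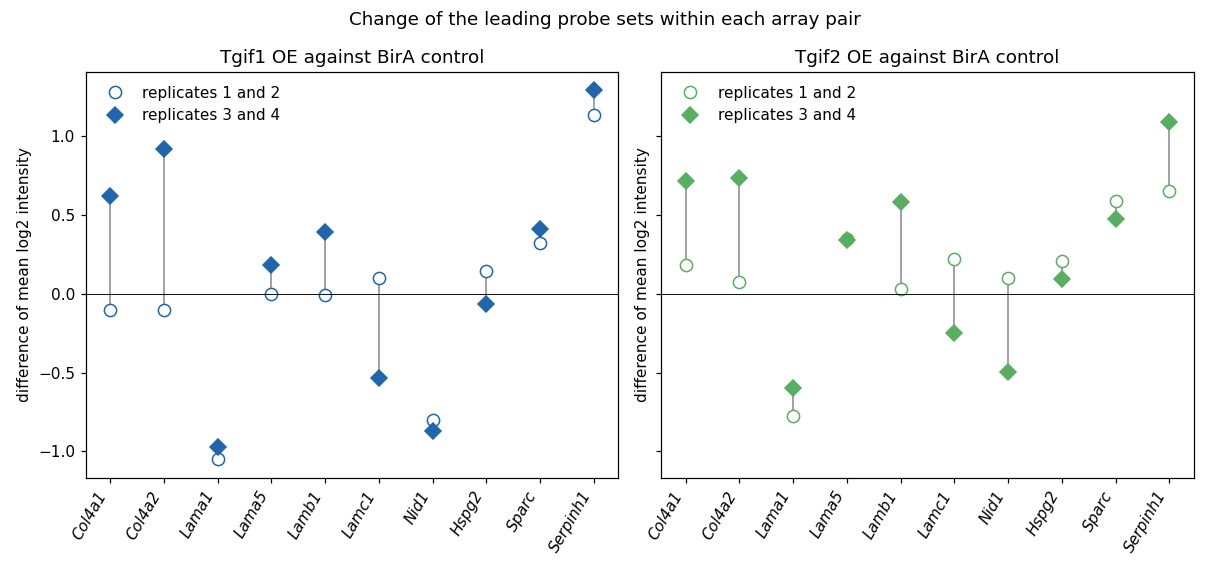
Difference of mean log2 intensity from BirA control (vertical axis) for the leading probe set of each gene within array replicates 1 and 2 (open circles) and within replicates 3 and 4 (filled diamonds). The leading probe sets of Col4a1 and Col4a2 lie between -0.11 and 0.18 in the first pair and between 0.62 and 0.91 in the second, while Lama1, Sparc and Serpinh1 keep 1 sign in both pairs.

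Unlike collagen IV, none of the 4 laminin chains followed here (Lama1, Lama5, Lamb1 and Lamc1) was called in the knockdown. Other laminin chains are given further below. None of the 8 probe sets of these 4 genes (0 of 8) passed the threshold in limma, where 22.3% of all probe sets did. All 8 changes were positive. Of the 8, 1 (Lama1) had an unadjusted p under 0.05. Lama1, the alpha chain of laminin-111, measured 8.002 and 7.938 on Tgif1 KD arrays, against 7.768 and 7.779 on shControl arrays, a change of 0.20 ± 0.09 (adjusted p = 0.149). The leading probe sets of Lamb1 and Lamc1 changed by 0.03 and 0.17, neither past the threshold. The other Lamb1 probe sets were at 0.21 (1424113_at) and 0.43 (1451241_at), and Lamc1 1423886_at was at 0.19. Lama5, the alpha chain of laminin-511, was at 0.29 with a wide 95% interval of -0.24 to 0.82, and its second probe set, 1427010_s_at, was at 0.30. With only the knockdown groups fitted, Lamb1 1451241_at (adjusted p = 0.0142) and Lama5 1427010_s_at (adjusted p = 0.0471) were called. The 95% intervals of the main fit leave room for sizeable changes in either direction for Lama5. They exclude a change of the size of Col4a1 for all 4 leading laminin probe sets.

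Lama1 fell under both overexpression labels. Its log2 intensities were 6.95, 6.78, 6.90 and 6.90 on arrays labelled Tgif1 OE, and 7.09, 7.20, 7.29 and 7.25 on arrays labelled Tgif2 OE, against 7.80, 8.03, 7.91 and 7.84 on BirA control arrays. The groups did not overlap. The change was -1.01 ± 0.06 under the Tgif1 OE label (adjusted p = 3.34e-07), 0.50-fold, and -0.69 ± 0.06 under the Tgif2 OE label (adjusted p = 5.1e-06), or -0.79 relative to the median of all probe sets. Both array pairs showed it, at -1.05 and -0.97 under the Tgif1 OE label and at -0.77 and -0.60 under the Tgif2 OE label.

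Lamb1 and Lamc1, the beta and gamma chains that laminin-111 and laminin-511 share, were less uniform. The leading Lamb1 probe set measured 10.70, 10.71, 11.08 and 11.02 on arrays labelled Tgif2 OE, against 10.61, 10.74, 10.51 and 10.43 on BirA control arrays. Its rise of 0.30 ± 0.10 (adjusted p = 0.0332) came with overlapping groups. It was at 0.03 in replicates 1 and 2 and at 0.58 in replicates 3 and 4 (adjusted p of the difference = 0.0197). The call was lost with quantile normalization (0.16, adjusted p = 0.278) and with columns centred on their medians (0.20, adjusted p = 0.166). It was also lost with only the groups of the comparison fitted (adjusted p = 0.07), with array pairs as a random block (adjusted p = 0.0924) and with array pairs averaged (adjusted p = 0.204). So it was on leaving out BirA control replicate 1, 3 or 4 or Tgif2 OE replicate 3 or 4 (adjusted p between 0.0528 and 0.103). The second Lamb1 probe set, 1424113_at, rose by 0.63 ± 0.12 (adjusted p = 0.00086), and the third, 1451241_at, was at 0.12 (adjusted p = 0.628).

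Under the Tgif1 OE label none of the 3 Lamb1 probe sets was called, with changes of 0.19, 0.10 and -0.25 (adjusted p = 0.238, 0.634 and 0.381, and 0 with an unadjusted p under 0.05). Lamc1 fell only in its second probe set, 1423886_at, by a log2 change of -0.43 ± 0.11 under the Tgif1 OE label (adjusted p = 0.014) and -0.35 ± 0.11 under the Tgif2 OE label (adjusted p = 0.0252). The call under the Tgif1 OE label was lost with only the groups of that comparison fitted (adjusted p = 0.0618), with array pairs averaged (adjusted p = 0.166) and in array replicates 1 and 2 alone (-0.19, adjusted p = 0.0835). That under the Tgif2 OE label was lost with array pairs as a random block (adjusted p = 0.069), with array pairs averaged (adjusted p = 0.168) and without BirA control replicate 1, 2 or 3 or Tgif2 OE replicate 3 (adjusted p between 0.0504 and 0.0608). The leading Lamc1 probe set was at -0.22 (adjusted p = 0.233) and -0.01 (adjusted p = 0.939). Within array pairs under the Tgif1 OE label it was at 0.10 in replicates 1 and 2 and at -0.53 in replicates 3 and 4 (adjusted p of the difference = 0.0194).

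Lama5 depended on how the replicate numbers were treated. It measured 8.45, 8.51, 7.94 and 7.91 on arrays labelled Tgif2 OE, against 8.12, 8.14, 7.68 and 7.49 on BirA control arrays, so that replicates 1 and 2 were higher in both groups. Without the block its change was 0.34 ± 0.18 (adjusted p = 0.153). With the replicate number as a block the same 0.34 had an adjusted p of 0.00318, and the second probe set, 1427010_s_at, at 0.22, had 0.0288. With the array pair as a fixed term both probe sets passed too (adjusted p = 0.00293 and 0.017). With array pairs as a random block neither probe set passed (adjusted p = 0.254 and 0.477), nor did either with array pairs averaged (adjusted p = 0.38 and 0.564). The leading probe set changed by 0.35 in replicates 1 and 2, where it was called alone (adjusted p = 0.0442), and by 0.34 in replicates 3 and 4. Under the Tgif1 OE label its probe sets were at 0.09 and 0.11, short of the threshold.

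Of the linkers, nidogen 1 moved most. Nid1, which binds the laminin gamma1 chain and collagen IV, measured 10.49 and 10.49 on Tgif1 KD arrays, against 10.09 and 10.01 on shControl arrays. That change of 0.44 ± 0.16 missed the threshold (adjusted p = 0.0636), and passed it in some other settings, such as without Tgif2 OE replicate 1, 2 or 4 (adjusted p between 0.0158 and 0.0413) or with quantile normalization (adjusted p = 0.0451). Its second probe set, 1448469_at, was at 0.34 (adjusted p = 0.200).

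Under the Tgif1 OE label Nid1 fell in both probe sets. The leading one measured 8.95, 8.90, 8.87 and 8.94 on those arrays, against 9.69, 9.77, 9.74 and 9.82 on BirA control arrays. The groups lay well apart, and the change was -0.84 ± 0.11 (adjusted p = 0.000141), 0.56-fold, with -0.80 and -0.87 in the array pairs. The second probe set fell by 0.59 ± 0.13 on the log2 scale (adjusted p = 0.00402), a call lost with array pairs averaged (adjusted p = 0.0896).

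Arrays labelled Tgif2 OE gave 9.82, 9.82, 9.39 and 9.18 for the leading Nid1 probe set. Replicates 1 and 2 lay at the level of BirA control and replicates 3 and 4 below it, with changes of 0.10 and -0.49 (adjusted p of the difference = 0.00722) and -0.20 over all 4 (adjusted p = 0.202). The second probe set fell by 0.59 on the log2 scale there too (adjusted p = 0.00276, or 0.0596 with array pairs averaged). Perlecan, the heparan sulfate proteoglycan encoded by Hspg2, was called in none of these 3 comparisons with a control. Its probe sets were at -0.24 and 0.25 on Tgif1 KD arrays (adjusted p = 0.238 and 0.241), opposite in sign, and between -0.03 and 0.15 under the overexpression labels, with 0 of these 6 values at an unadjusted p under 0.05.

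Sparc was higher in all 3 comparisons with a control. It encodes a secreted glycoprotein that binds collagens, collagen IV among them. Its log2 intensities were 11.81 and 11.88 on Tgif1 KD arrays, against 11.18 and 11.24 on shControl arrays. It rose by 0.63 ± 0.09 (adjusted p = 0.000178), 1.55-fold, and its second probe set, 1448392_at, by 0.52 ± 0.08 (adjusted p = 0.000202).

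In the overexpression arm Sparc measured 10.78, 10.80, 11.01 and 10.998 on arrays labelled Tgif1 OE, and 11.05, 11.06, 10.99 and 11.13 on arrays labelled Tgif2 OE, against 10.48, 10.46, 10.61 and 10.57 on BirA control arrays. Neither labelled group overlapped the control. Sparc rose by 0.37 ± 0.07 under the Tgif1 OE label (adjusted p = 0.00122) and by 0.53 ± 0.07 under the Tgif2 OE label (adjusted p = 4.26e-05), or 0.42 above the median of all probe sets. Both array pairs showed a rise, of 0.32 and 0.41 under the Tgif1 OE label and of 0.59 and 0.47 under the Tgif2 OE label. Its second probe set, 1448392_at, rose by 0.24 ± 0.06 (adjusted p = 0.00637) under the Tgif1 OE label and by 0.48 ± 0.06 (adjusted p = 2.21e-05) under the Tgif2 OE label. Under the Tgif1 OE label that call was lost with array pairs as a random block (adjusted p = 0.0635), with array pairs averaged (adjusted p = 0.147) and in array replicates 1 and 2 alone (0.17, adjusted p = 0.101). With array pairs averaged the leading probe set also lost its call there (adjusted p = 0.0721).

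Serpinh1 rose most under the overexpression labels. It encodes Hsp47, the chaperone of the endoplasmic reticulum that binds folded procollagen. Its log2 intensities were 7.18, 7.11, 7.32 and 7.32 on arrays labelled Tgif1 OE, and 6.63, 6.71, 7.25 and 6.99 on arrays labelled Tgif2 OE, against 6.13, 5.90, 5.89 and 6.17 on BirA control arrays. Every labelled array lay above every control array. The rise was 1.21 ± 0.12 (adjusted p = 8.11e-06), 2.31-fold, under the Tgif1 OE label and 0.87 ± 0.12 (adjusted p = 7.76e-05), 1.83-fold, under the Tgif2 OE label, the second being 0.76 above the median of all probe sets. The second probe set, 1450843_a_at, rose by 1.32 ± 0.11 (adjusted p = 2.9e-06) and 0.89 ± 0.11 (adjusted p = 4.99e-05).

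In the knockdown Serpinh1 measured 7.02 and 6.96 on Tgif1 KD arrays, against 6.62 and 6.75 on shControl arrays. The change of 0.31 ± 0.16 did not pass the threshold (adjusted p = 0.215). The second probe set did, at 0.54 ± 0.16 (adjusted p = 0.024), and lost the call without any 1 of Tgif1 KD replicate 1 or 2 or shControl replicate 1 or 2 (adjusted p between 0.0614 and 0.145). The collagen chaperone and the collagen IV chains thus had their largest changes in different comparisons.

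**Figure D3:**
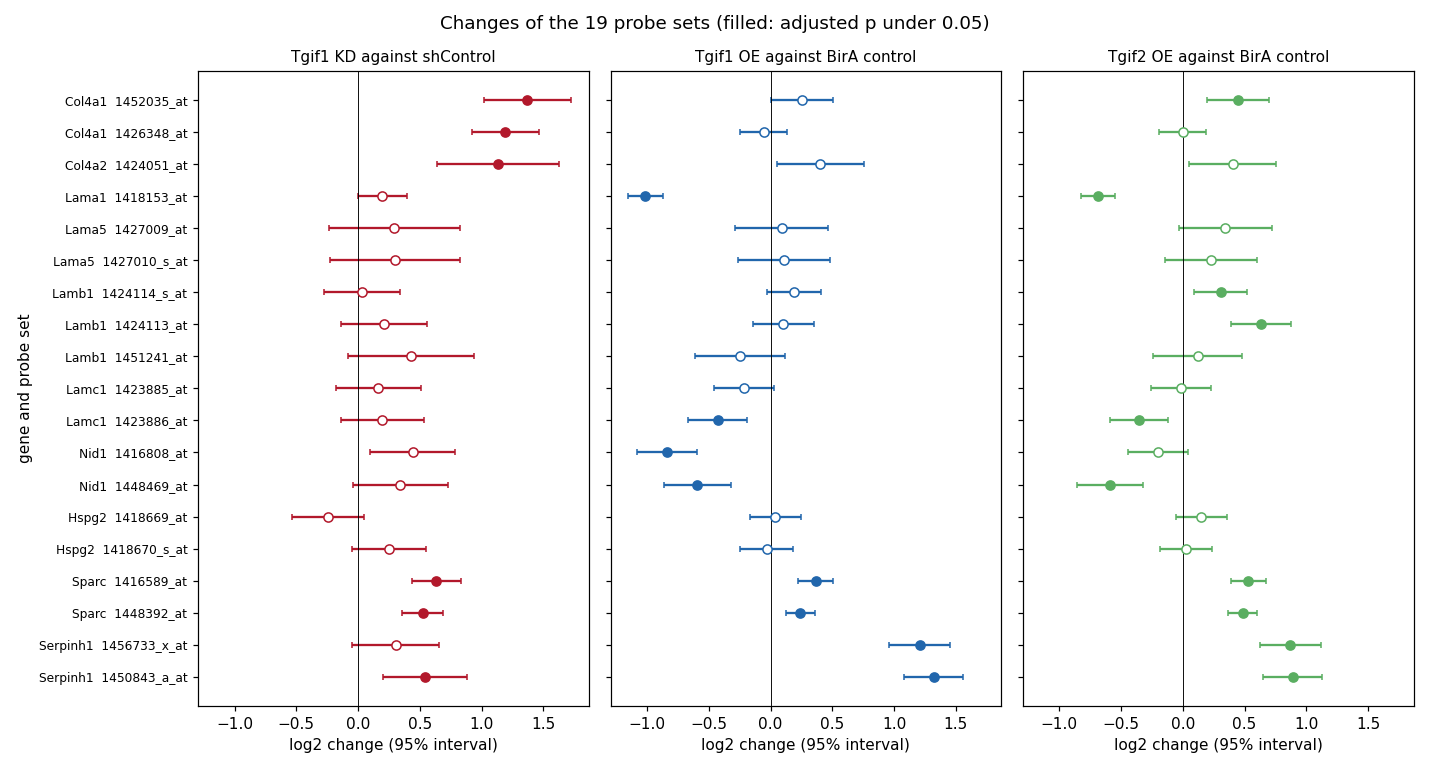
Log2 change (horizontal axis, with 95% intervals) of the 19 probe sets, by gene and probe set down the page, in the 3 comparisons with a control; filled points have an adjusted p under 0.05. Col4a1 and Col4a2 lead the knockdown panel at 1.13 to 1.37, and Serpinh1 and Lama1 lie at opposite ends of both overexpression panels.

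The test of the difference between the knockdown effect and the effect under the Tgif1 OE label, whose arrays are all different, called 7 of the 19 probe sets as more positive in the knockdown and 2 as more negative, where 12.4% and 12.2% of all probe sets were called. Lama1 differed by 1.21 ± 0.11 (adjusted p = 2.56e-06), Nid1 by 1.28 ± 0.20 (adjusted p = 0.000235) and Col4a1 by 1.11 ± 0.20 (adjusted p = 0.00091). Serpinh1 differed the other way, by -0.90 ± 0.20 (adjusted p = 0.00408). Col4a2, at 0.73 ± 0.28, did not pass (adjusted p = 0.0781), though it did without Tgif1 OE replicate 3 (0.85, adjusted p = 0.0326) or replicate 4 (0.83, adjusted p = 0.0422).

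Among the 7, the calls of Lamc1 1423886_at (0.62, adjusted p = 0.0276) and Sparc 1448392_at (0.28, adjusted p = 0.0442) were the least firm. Of 27 alternatives, 6 lost the Lamc1 call, among them only the groups of the comparison fitted (adjusted p = 0.0504) and array pairs averaged (adjusted p = 0.0832). For Sparc 18 of 27 lost it, among them quantile normalization (adjusted p = 0.0575), centred columns (adjusted p = 0.0557) and array pairs averaged (adjusted p = 0.136). The Lamc1 call was lost without any 1 of the 4 knockdown-arm arrays, Tgif1 KD or shControl replicate 1 or 2 (adjusted p between 0.0549 and 0.108). The Sparc call was lost without any 1 of those 4 arrays, and also on leaving out 1 of BirA control replicates 1, 2 and 3, Tgif2 OE replicates 1, 3 and 4, or Tgif1 OE replicates 1 and 2 (adjusted p between 0.0503 and 0.135).

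Arrays labelled Tgif1 OE and Tgif2 OE share the BirA control, so they were also compared directly. The median change of all probe sets was -0.11, and 1 of the 19 rose and 4 fell, where 1.93% rose and 16.7% fell. Nid1 was lower under the Tgif1 OE label by 0.64 in its leading probe set, as a log2 change of -0.64 ± 0.11 (adjusted p = 0.00219), whereas 1448469_at was at 0.00 (adjusted p = 0.987). Lama1 was at -0.33 ± 0.06 (adjusted p = 0.00412), or -0.22 relative to the median. With array pairs averaged, 0 of the 19 were called in this comparison, and Nid1 (adjusted p = 0.0952) and Lama1 (adjusted p = 0.104) lost their calls. Lama1 also lost it with array pairs as a random block (adjusted p = 0.0751).

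The other calls in that direct comparison were in secondary probe sets. Lamb1 1424113_at was at -0.53 ± 0.12 (adjusted p = 0.00685, or 0.136 with array pairs averaged). Sparc 1448392_at, at -0.24 (adjusted p = 0.00913), lost its call with quantile normalization (-0.10, adjusted p = 0.295), with centred columns (-0.14, adjusted p = 0.133) and with array pairs as a random block (adjusted p = 0.0892). Serpinh1 1450843_a_at rose by 0.43 ± 0.11 (adjusted p = 0.0172), or 0.54 relative to the median, and lost the call without Tgif2 OE replicate 1 (0.38, adjusted p = 0.0517) or replicate 2 (0.35, adjusted p = 0.0521) and with array pairs as a random block (adjusted p = 0.127).

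The leading Serpinh1 probe set was at 0.34 in the direct comparison (adjusted p = 0.0556) and passed the threshold without Tgif2 OE replicate 3 (0.46, adjusted p = 0.00899) and with the replicate number as a block (adjusted p = 0.0334), but not with array pairs as a random block (adjusted p = 0.213) or array pairs averaged (adjusted p = 0.252). With the block by number Lama5 also passed, at -0.25 (adjusted p = 0.0234), and 6376 in place of 4216 probe sets were called over the array. For Lama5 the array pair as a fixed term gave an adjusted p of 0.0235, the random block 0.478 and pairs averaged 0.586.

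The control groups of both arms also stood at different levels for several genes, which is given as a description because the constructs differ. Lamb1 averaged 10.57 ± 0.13 on BirA control arrays (SD, n = 4) and 9.79 ± 0.10 on shControl arrays (SD, n = 2), with no overlap. From highest to lowest, Sparc ran from Tgif1 KD through shControl, Tgif2 OE and Tgif1 OE to BirA control, and the only neighbours in that order whose ranges overlapped were the overexpression labels. Nid1 ran from Tgif1 KD through shControl, BirA control and Tgif2 OE to Tgif1 OE, and only BirA control and Tgif2 OE overlapped. For Lama5 every neighbouring pair of groups overlapped.

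Other genes of the same matrix did not move as a block. The lists, like the genes above, were drawn up with earlier results of these data known, and each gene is counted by its leading probe set. Of all probe sets, 11.2% rose and 11.1% fell in the knockdown. Under the Tgif1 OE label 8.74% rose and 9.09% fell, and under the Tgif2 OE label 24.9% and 6.18%. With 1 probe set fitted for each of 12393 genes, 1552 rose and 1594 fell in the knockdown, 1408 and 1179 under the Tgif1 OE label, and 3559 and 829 under the Tgif2 OE label. Of 10 measured genes among the other collagen IV and laminin chains, 0 rose and 1 fell on Tgif1 KD arrays, 1 rose and 1 fell under the Tgif1 OE label, and 3 rose under the Tgif2 OE label. Lama3, the alpha chain of the epithelial laminin-332, fell by 1.00 ± 0.23 on the log2 scale on Tgif1 KD arrays (adjusted p = 0.00563) and rose by 0.88 ± 0.16 (adjusted p = 0.00158) and 1.29 ± 0.16 (adjusted p = 5.22e-05) under the Tgif1 OE and Tgif2 OE labels. Lamb2 fell under the Tgif1 OE label (-0.53, adjusted p = 0.018), and Lama4 (0.53, adjusted p = 0.0236) and Col4a5 (0.35, adjusted p = 0.019) rose under the Tgif2 OE label.

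Of 13 measured other basement membrane components, 0 rose and 1 fell in the knockdown, 1 rose and 1 fell under the Tgif1 OE label, and 2 rose and 0 fell under the Tgif2 OE label. The single call in the knockdown was Col18a1, the collagen that yields endostatin, at -0.30 (adjusted p = 0.0448). Npnt, which encodes the integrin ligand nephronectin, was counted there as not called by its leading probe set (0.25, adjusted p = 0.351), while another of its probe sets rose by 1.19 ± 0.13 (adjusted p = 1.09e-05). Nid2, the second nidogen, fell under the Tgif1 OE label (-0.38 ± 0.08, adjusted p = 0.00395), as Nid1 did. Tinagl1, a matricellular protein, rose under both labels (0.35, adjusted p = 0.0261 and 0.0164), and Agrn, a heparan sulfate proteoglycan, rose under the Tgif2 OE label (0.53, adjusted p = 0.00194).

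Enzymes that fold, modify and export collagen were the list with the most one-sided count in the knockdown, where 6 of 19 measured genes rose and 0 fell, with a median log2 change of 0.28. P4ha1 and P4ha2, the catalytic subunits of prolyl 4-hydroxylase, rose by 1.36 ± 0.14 (adjusted p = 7.94e-06) and 1.06 ± 0.18 (adjusted p = 0.000489). Fkbp7, a prolyl isomerase of the endoplasmic reticulum, rose by 0.95 ± 0.11 (adjusted p = 1.98e-05). Under the Tgif1 OE label 3 rose and 4 fell, among them Loxl1, a lysyl oxidase that crosslinks matrix (0.69, adjusted p = 0.00446), and Plod1, a lysyl hydroxylase (-0.73, adjusted p = 0.00551).

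Under the Tgif2 OE label 6 genes of that list rose and 0 fell, led by Loxl1 (0.83, adjusted p = 0.000737) and P4ha2 (0.62, adjusted p = 0.00182). P4ha1 rose in the knockdown with the collagen IV chains, whereas the chaperone Serpinh1 had a larger change under the Tgif1 OE label than in the knockdown. The plot of pathway lists sets these counts beside those of the receptors and proteases.

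**Figure D4:**
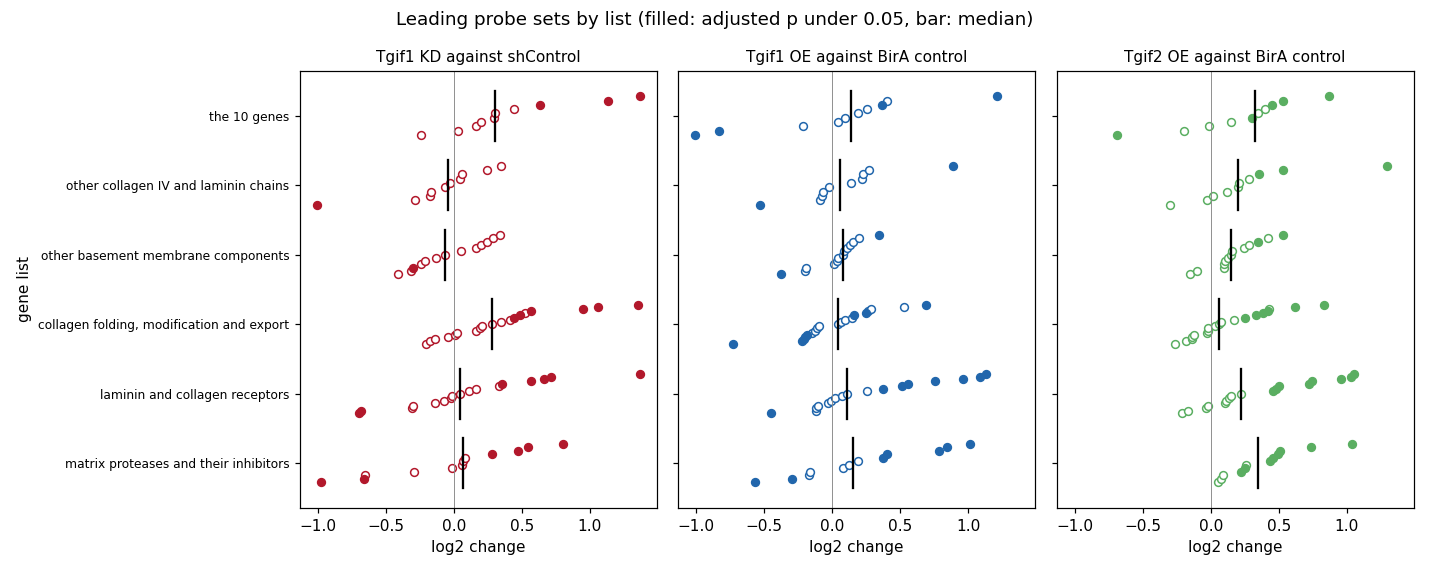
Log2 change (horizontal axis) of the leading probe set of each gene, by list down the page, in the 3 comparisons with a control; filled points have an adjusted p under 0.05 and the vertical bar is the list median. In the knockdown 6 of 19 folding and export genes rose and 0 fell, and under the Tgif2 OE label 8 of 17 receptors and 8 of 12 proteases and inhibitors rose and 0 fell. Of all probe sets, 11.2% rose in the knockdown and 24.9% under the Tgif2 OE label.

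Of 17 measured receptors for laminin and collagen, 5 rose and 2 fell on Tgif1 KD arrays. Itgav, the integrin alphaV subunit, rose by 1.37 ± 0.11 (adjusted p = 8.85e-07), Sdc4, a syndecan, by 0.71 ± 0.14 (adjusted p = 0.00177), and Itga6, the alpha6 subunit of laminin-binding integrins, by 0.67 ± 0.08 (adjusted p = 3.83e-05). Itga3, the alpha3 subunit of a laminin receptor, fell by 0.69 on the log2 scale (adjusted p = 0.0173). It rose by 1.08 ± 0.13 (adjusted p = 7.06e-05) and 1.05 ± 0.13 (adjusted p = 5.53e-05) under the Tgif1 OE and Tgif2 OE labels, where 7 receptors rose and 1 fell and 8 rose and 0 fell. Ddr1, a collagen-binding receptor tyrosine kinase, rose by 0.96 under both labels (adjusted p = 0.000485 and 0.000314).

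Of 12 measured proteases and inhibitors, 4 rose and 2 fell in the knockdown and 5 rose and 2 fell under the Tgif1 OE label. Under the Tgif2 OE label 8 rose, where 24.9% of all probe sets rose. Timp2, an inhibitor of matrix metalloproteinases, fell by 0.98 ± 0.17 on the log2 scale on Tgif1 KD arrays (adjusted p = 0.000599) and rose by 0.79 ± 0.12 (adjusted p = 0.000296) and 0.74 ± 0.12 (adjusted p = 0.000332) under the Tgif1 OE and Tgif2 OE labels. Reck, a membrane-anchored inhibitor, rose in the knockdown (0.80 ± 0.16, adjusted p = 0.00247), and so did Mmp2, the type IV collagenase (0.47 ± 0.13, adjusted p = 0.0151). Under the Tgif2 OE label, where the median of all probe sets was 0.11, every list in the plot had a positive median, though that of the folding and export genes, 0.06, lay below it.

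Some markers of other cell types were also called, and the shares of all probe sets given for the lists above apply to their counts too. Of 14 measured primitive endoderm markers, a cell type known to secrete collagen IV, 3 rose (Cubn, Pdgfra and Gata6, at 0.72, 0.60 and 0.59) and 1 fell (Amn, at -0.50) on Tgif1 KD arrays. The summed linear intensity of the list ranged from 512 to 520 on Tgif1 KD arrays and from 509 to 530 on shControl arrays. Gata4, a defining factor of that lineage, averaged 4.08 log2 on Tgif1 KD and 4.27 on shControl arrays, on a scale whose lowest value was 2.19. The files hold no detection calls, so no marker can be said to be at 0.

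Fibroblast markers, included because feeder cells are a usual source of collagen, summed to 2958 to 3119 on Tgif1 KD arrays and 2188 to 2240 on shControl arrays, with 2 of 14 higher (Vim at 0.70 and Twist1 at 0.61) and 1 lower (Thy1 at -1.33). Vim, which ES cells may express too, made up most of that sum. Without Vim, left out after its values were seen, the list summed to 483 to 487 on Tgif1 KD arrays and 627 to 664 on shControl arrays, the opposite order. Col1a1, the main fibrillar collagen of fibroblasts, averaged 4.47 log2 on Tgif1 KD and 4.31 on shControl arrays. The trophectoderm list summed to 846 to 848 on Tgif1 KD arrays and 1216 to 1317 on shControl arrays, and 1 of its 8 genes fell (Tfap2c, at -1.02). The ES list summed to 68440 to 70136 and to 59513 to 59653, with 2 of 8 higher. The part of these cell types in the collagen IV values was not tested.

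Under the overexpression labels the trophectoderm list had the largest median log2 change of the marker lists (0.46 for Tgif1 OE and 0.54 for Tgif2 OE). It summed to 2689 to 5427 on arrays labelled Tgif1 OE and 1757 to 4155 on arrays labelled Tgif2 OE, against 966 to 1159 on BirA control arrays, and 4 and 6 of 8 genes rose and 1 and 1 fell. Krt18 rose by 2.86 (adjusted p = 0.000175) and Krt8 by 2.79 (adjusted p = 1e-04) under the Tgif1 OE label. These keratins were the brightest genes of the list on the labelled arrays. Without Krt8, but with Krt18, the sums were 1442 to 2826 and 1231 to 2544, against 712 to 897. Tfap2c averaged 8.36 log2 under the Tgif1 OE label, 9.39 under the Tgif2 OE label and 8.76 on BirA control arrays. For Hand1 the averages were 6.26, 5.83 and 6.35. The fibroblast list had 7 of 14 higher and 1 lower under that label and 6 higher under the Tgif2 OE label, led by Acta2 (1.75 and 1.66), with sums of 1365 to 1956 and 2109 to 2566, against 1530 to 1803 on BirA control arrays. Without Vim the sums were 497 to 750 and 479 to 730, against 351 to 418.

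Primitive endoderm markers had 2 of 14 higher and 0 lower under the Tgif1 OE label and 5 higher and 1 lower under the Tgif2 OE label, with sums of 562 to 616 and 634 to 686, against 505 to 524 on BirA control arrays. Of the 8 ES markers, 0 rose and 4 fell under the Tgif1 OE label and 1 rose under the Tgif2 OE label. Their part in the values of Lama1, Nid1, Sparc and Serpinh1 was not tested. An RNA measure moved in the knockdown arm: the log2 difference between the 5′ and 3′ control probe sets of Gapdh was -0.10 to -0.08 on Tgif1 KD arrays and -0.22 to -0.21 on shControl arrays. For Actb it was -0.52 to -0.49 on Tgif1 KD arrays and -0.67 to -0.61 on shControl arrays. Their part in the collagen IV values was not tested either.

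Outside these 10 genes, the probe sets whose log2 values were most like those of Col4a1 over the 16 arrays were those of Cstb (Pearson r = 0.97), Cdkn1a (0.97), Npnt (0.96), Ccdc88a (0.96) and Btbd1 (0.96). The Npnt probe set is the one with the knockdown rise of 1.19 given above. Arrays within a group share their treatment, so these values follow mainly the group differences. Among the 10 genes, Sparc came after Col4a2, with r = 0.92 and 0.94 for its 2 probe sets against the leading one of Col4a1. Lama1 was at 0.35 and Lamb1 at -0.63.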

How the data were processed

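Processed values were deposited by the authors as log2 intensities, 1 per probe set and array. RMA is the summary method named in the submitters' processing notes, which add limma for the Tgif2 OE arrays. The sources used here give no versions and do not say whether all arrays were normalized in 1 run. Values ran from 2.19 to 14.79. The number of arrays limits the precision.

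Probe sets were named from the platform annotation of the array (20380 with 1 symbol, 691 with several), and 64 control probe sets of 22690 were left out. Differences were fitted with limma 3.58.1 in R 4.3.3 (lmFit and eBayes, 1 mean per group over 16 arrays, no covariates, Benjamini-Hochberg adjustment over 22626 probe sets). On simulated data the fit recovered between 83.5% and 95.5% of 200 probe sets shifted by 1 log2 unit among 22626, depending on the comparison. The simulated arrays had independent errors, whereas the array pairs had a consensus correlation of 0.528 in the random-block fit. The recovery therefore need not hold for the real arrays. Promoter windows came from RefSeq (GRCm38.p6).

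All probe sets of the 10 genes were reported; from each list, up to 3 genes a direction with the largest called change were named, and the 5 probe sets most like Col4a1. Gata4, Col1a1 and the named fibroblast and trophectoderm markers serve only as checks. The members and lists were chosen with earlier results of these data known. Alternatives covered scaling, dim probe sets, 1 probe set per gene, the variance model, the arrays fitted, blocks and leaving out arrays; the test of the array pairs was added after seeing the data.

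Same-numbered arrays of the overexpression arm deviated together (r between 0.304 and 0.554 over 12 pairs), but so did the other number of the same array pair (0.305 to 0.565), and own numbers matched best in 3 of 24 cases. The main fit has no pairing term; blocks by replicate number and by array pair were run as alternatives. In the knockdown arm r was 0.0051.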

Additional observations from a re-analysis of the deposited data

Results flagged for a closer look

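Of 57 combinations of a member probe set and a group of 4 arrays, 2 held an array far from the other 3, by Dixon's criterion for 4 samples; chance marks about 1 in 20. Hspg2 probe set 1418669_at was at 8.96 on Tgif2 OE replicate 3, against 8.75 to 8.77 on the other 3 arrays, a gap of 0.934 of the range. Lamb1 probe set 1451241_at was at 6.23 on Tgif1 OE replicate 2, against 6.90 to 7.03 on the other 3, a gap of 0.838 of the range. Neither probe set was called against BirA control.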

How the results depend on the processing

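Over 28 alternatives, 16 of which left out 1 array, the member changes gave 2615 values in 5 comparisons: 2479 kept their side of the threshold, 71 lost a call, 65 gained one and 0 of the called values changed sign. Counts of called member probe sets moved by over 1.5 times as follows. With 1 probe set per gene, and so 10 in place of 19 tested, they were 3 (Tgif1 KD), 4 (Tgif1 OE), 5 (Tgif2 OE), 2 (Tgif1 OE against Tgif2 OE) and 4 (knockdown minus Tgif1 OE effect). For Tgif1 KD, 11 were called with only its own groups fitted, and 11 with array replicates 1 and 2 alone or 3 and 4 alone in the overexpression arm. With array pairs averaged, 4 were called for Tgif1 OE, 6 for Tgif2 OE and 0 for Tgif1 OE against Tgif2 OE (6 at an unadjusted p under 0.05 in limma), where a fixed array-pair term gave 8 and a random one 2. Leaving out 1 array gave 5 to 7 for Tgif1 KD, 8 to 9 for Tgif1 OE, 8 to 10 for Tgif2 OE, 4 to 6 for Tgif1 OE against Tgif2 OE and 7 to 10 for the difference of effects.

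Counts over the whole array moved more. With 1 probe set per gene they were 3146, 2587, 4388 and 2439 for Tgif1 KD, Tgif1 OE, Tgif2 OE and Tgif1 OE against Tgif2 OE. A fixed array-pair term gave 7723 for Tgif1 KD, 6564 for Tgif1 OE and 7665 for Tgif1 OE against Tgif2 OE; a random one gave 2156 for Tgif1 OE, 3785 for Tgif2 OE and 957 for Tgif1 OE against Tgif2 OE. Array pairs averaged gave 1077, 2289 and 166 for those 3. Tgif1 KD had 8024 and 8506 with array replicates 1 and 2 alone or 3 and 4 alone. Tgif1 OE against Tgif2 OE had 1941 with quantile normalization (989 higher, 952 lower) and 1777 with columns centred on their medians (849 higher, 928 lower), against 436 higher and 3780 lower as deposited; Tgif2 OE had 2805 higher and 2439 lower with centred columns. Leaving out 1 array gave 3152 (without shControl replicate 2) to 5117 for Tgif1 KD, with 3235 without Tgif1 KD replicate 1, 3238 to 4038 for Tgif1 OE, 5967 to 7136 for Tgif2 OE and 3013 to 4237 for Tgif1 OE against Tgif2 OE. The causes were not tested, apart from the smaller number of probe sets tested with 1 per gene.

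With the replicate block, 6376 probe sets were called for Tgif1 OE against Tgif2 OE. In the knockdown arm, where the numbers do not pair the arrays, the block brought both Lama5 probe sets (adjusted p = 0.0475 and 0.0427) and Nid1 1448469_at (adjusted p = 0.0491) past the threshold and gave 9 called member probe sets. Apart from these and the Lama5 and Serpinh1 values given above, the block changed no call of a member. With 2 arrays a group in the knockdown, its spread is borrowed from the other groups.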
